A study of Mus musculus with 4 samples.

Results

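The data describe 32 genes listed as targets or regulators of the transcription factor p53, measured in sorted mouse bone marrow cells with and without Fancd2 and Foxo3a. These genes, and the other gene lists below, were chosen with earlier results of these data known. Each gene was represented by its brightest probe set with exactly 1 gene symbol. Of the 32 genes, 29 were measured, out of 22180 genes on the array. Trp53, which encodes p53 itself, the pro-apoptotic gene Bax and the secreted cytokine gene Gdf15 were not analysed here. Each of the 29 genes had 1 probe set, so no second probe set checks its value.

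There were 4 Affymetrix Mouse Gene 2.0 ST arrays, 1 for each genotype: wild type (WT), knockout of Fancd2 (Fancd2KO), knockout of Foxo3a (Foxo3aKO) and the double knockout (DKO). All mice were 2 months old and untreated as far as the labels say, and the cells were mononuclear marrow cells sorted by flow cytometry for c-Kit and Sca-1, without lineage antigens or CD34. The labels call them SLAM cells, a name usually tied to antigens that are not listed there. The sources used here give no knockout alleles, strain or sex, and do not say how many mice or cells went into an array. With 1 array per genotype there is no replicate error, and every difference below describes a pair of arrays, with no test.

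p53 is held at low levels by its ubiquitin ligase Mdm2 and accumulates when DNA is damaged. It then binds paired half-sites near genes that stop the cell cycle, trigger cell death, restrain growth signalling or supply nucleotides for repair. Fancd2 belongs to the Fanconi anaemia pathway, which repairs DNA crosslinks, and activation of p53 is known in stem and progenitor cells that lack this pathway. Foxo3a is a forkhead transcription factor of stress resistance and quiescence that shares several target genes with p53.

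Signals are log2 values, in which a difference of 1 is 2-fold. The median of all gene values, 5.51 log2, served as a floor below which a signal was called dim. Of the 29 genes, 27 reached the floor on at least 1 array and 21 on all 4. Bbc3 and Eda2r were dim on every array. Array medians ran from 5.27 to 5.34. Of 13 measured stem cell markers, 13 lay above the floor on all 4 arrays, among them Kit at 10.41 to 10.67, Mecom at 8.56 to 8.97 and Procr at 7.80 to 8.05. Cd34, whose protein the gate excludes, also lay above it, at 9.67 to 10.79, as did all 14 neutrophil markers. Stem cell markers differed from WT in both directions. In Fancd2KO, Foxo3aKO and DKO, 7, 4 and 5 of the 13 were higher and 6, 9 and 8 lower. Over all genes, 49.98%, 51.0% and 46.9% were lower. Slamf1 was 1.11 above WT in Fancd2KO (1.15% of all genes at least 2-fold higher), and Tek differed by -1.25 in DKO (1.18% at least 2-fold lower). The targeted genes gave little contrast. Fancd2 stood at 6.56 (WT), 6.08 (Fancd2KO), 6.67 (Foxo3aKO) and 5.84 (DKO), and Foxo3 ran from 6.51 to 6.72. The exons under these probe sets were not known, so neither value checks the labels. In bulk samples, fewer cells of a type and less RNA per cell cannot be told apart. For 544 genes with 2 probe sets that reached the floor, both probe sets disagreed about a knockout's difference from WT by less than 0.91, 0.91 and 0.94 log2 in 95% of genes, for Fancd2KO, Foxo3aKO and DKO.

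Promoter sequences are given for the genes on which the results turn. RefSeq windows of assembly GRCm38.p6, from 250 bases before to 50 after a transcription start, were found for 26 of the 32 listed genes, with 35 windows in all. Windows were not found for Pmaip1, Perp, Tnfrsf10b, Trp53inp1, Rrm2b and Zmat3. The p53 half-site consensus was present in 11 of 35 windows (31.4%), against 8.36% of all 32851 windows of the same length. The 10 genes with such a window were Aen, Bax, Ccng1, Ei24, Gtse1, Mdm2, Polk, Ppm1d, Sesn1 and Trp53. The windows of Btg2, Plk2 and Plk3, which were at least 2-fold above WT in Foxo3aKO, held no match to it. Those of Btg2 and Plk2 held TGACGTCA, the full cyclic AMP response element bound by CREB and ATF factors, as did that of Ppm1d. That is 3 of 35 windows (8.57%), against 1.79% of all. Plk3 held only the shorter TGACG, in 2 places; TGACG, which also lies inside TGACGTCA, was in 9 of 35 windows and 20.8% of all. The FOXO core GTAAACA was in 4 of 35 windows, those of Bbc3, Eda2r, Mdm2 and Sesn1, and in 3.65% of all. The AP-1 motif TGANTCA was in 2 (7.81% of all) and the CArG box in 1 (1.63% of all). Both strands were searched, and the motifs were chosen with the values below known. A match describes letters in this window and is not a measured binding site.

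The 250 bases before the start are printed for 3 genes with TGACG in capitals, to be set against Ccng1 and against Cdkn1a, the classical p53 target, with p53 half-sites in capitals. Cdkn1a, the gene of the cell cycle inhibitor p21, is not on the list, but its values bear on the results. Its window is that of the upstream of 2 listed starts, printed because it held half-sites. The window of the other start held none. The windows lie at chr1:134079156-134079405 on the minus strand for Btg2, chr13:110394794-110395043 on the plus strand for Plk2, chr4:117133964-117134213 on the minus strand for Plk3, chr11:40755287-40755536 on the minus strand for Ccng1 and chr17:29090729-29090978 on the plus strand for Cdkn1a.
Btg2: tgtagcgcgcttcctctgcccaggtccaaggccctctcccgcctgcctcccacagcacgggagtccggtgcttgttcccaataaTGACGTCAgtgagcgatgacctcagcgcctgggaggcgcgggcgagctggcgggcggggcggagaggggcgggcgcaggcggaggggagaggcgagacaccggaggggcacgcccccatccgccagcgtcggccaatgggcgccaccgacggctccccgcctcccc
Plk2: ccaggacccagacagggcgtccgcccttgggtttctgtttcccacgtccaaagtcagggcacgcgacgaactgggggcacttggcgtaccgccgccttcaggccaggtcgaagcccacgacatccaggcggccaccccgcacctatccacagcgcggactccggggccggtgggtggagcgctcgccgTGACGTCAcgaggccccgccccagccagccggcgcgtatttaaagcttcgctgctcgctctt
Plk3: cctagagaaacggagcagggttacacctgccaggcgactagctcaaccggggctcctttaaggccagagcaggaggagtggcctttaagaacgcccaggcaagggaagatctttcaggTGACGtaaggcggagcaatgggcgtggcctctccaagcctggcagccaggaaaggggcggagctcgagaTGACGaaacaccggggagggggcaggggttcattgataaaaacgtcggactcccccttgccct
Ccng1: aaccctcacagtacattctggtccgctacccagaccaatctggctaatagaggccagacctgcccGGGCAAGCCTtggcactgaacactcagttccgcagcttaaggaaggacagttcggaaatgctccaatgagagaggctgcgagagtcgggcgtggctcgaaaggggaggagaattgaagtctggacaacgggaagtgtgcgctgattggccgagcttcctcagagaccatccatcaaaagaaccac
Cdkn1a: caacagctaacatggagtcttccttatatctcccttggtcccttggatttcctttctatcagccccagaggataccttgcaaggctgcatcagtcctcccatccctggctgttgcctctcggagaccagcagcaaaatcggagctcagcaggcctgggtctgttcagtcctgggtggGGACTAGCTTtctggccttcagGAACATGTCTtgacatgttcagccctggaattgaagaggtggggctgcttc
The full element began 166 bases before the start in Btg2 and 62 bases before it in Plk2. The shorter motif began 132 and 63 bases before the start in Plk3. The half-sites began 185 bases before the start in Ccng1, and 73 and 51 bases before it in Cdkn1a.

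The list as a whole was centred near WT on each knockout array, and a few genes stood far out on the higher side. In Fancd2KO, 2 of 29 genes (6.90%) exceeded WT by at least 2-fold, where 1.15% of all genes were, and 0 were at least 2-fold lower, where 1.01% of all genes were. In Foxo3aKO, 3 of 29 (10.3%) were at least 2-fold higher, against 1.27% of all genes, and 0 lower, against 0.902%. In DKO, 1 of 29 (3.45%) was at least 2-fold higher, against 0.987% of all genes, and 0 lower, against 1.18%. Among the 12041 genes that reached the floor on an array, the shares at least 2-fold higher were 1.68%, 1.81% and 1.37%, and those at least 2-fold lower 1.35%, 1.3% and 1.72%. The median difference over the 29 genes was -0.05 in Fancd2KO, -0.08 in Foxo3aKO and 0.12 in DKO, beside 0.00, -0.01 and 0.02 over all genes. The middle 95% of all genes ran from -0.76 to 0.76, from -0.75 to 0.78 and from -0.76 to 0.74. These comparisons share the WT array, so an error in WT moves all 3 together.

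**Figure D1:**
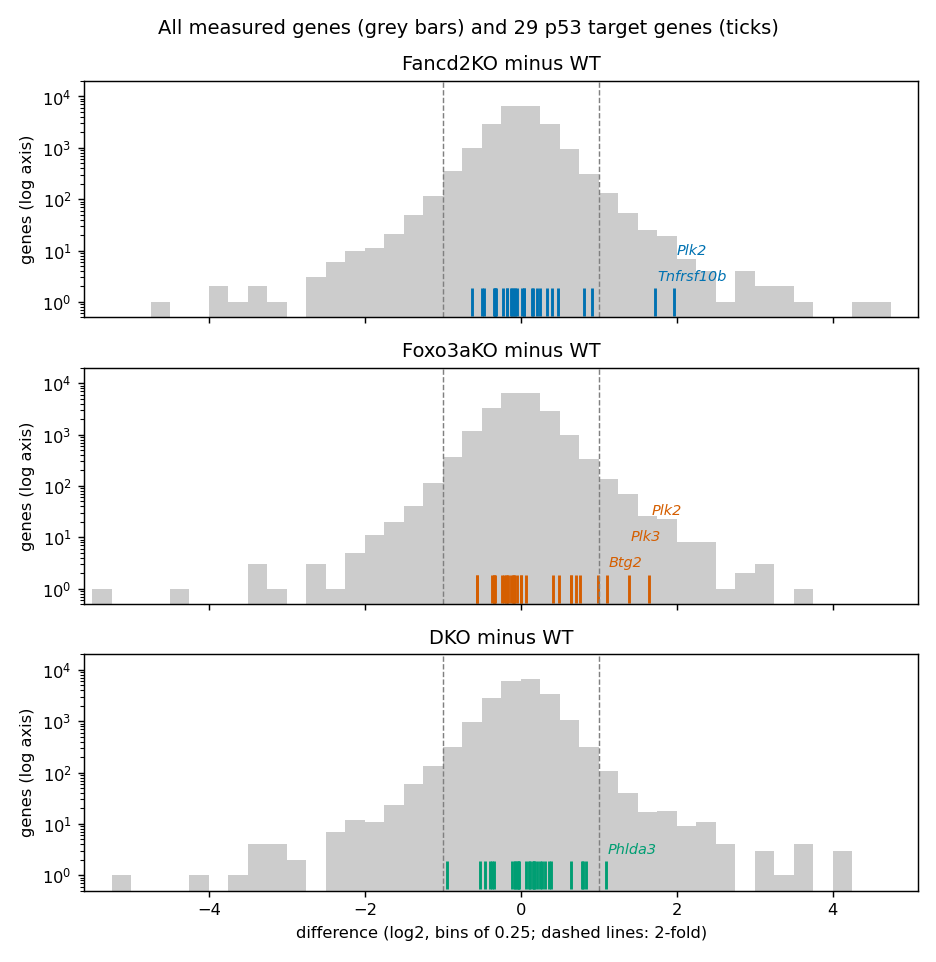
Grey bars count all 22180 genes by their log2 difference from WT (counts on a log axis), and coloured ticks mark the 29 p53 target genes. The ticks cluster around 0 on each knockout array, with Plk2 and Tnfrsf10b beyond 2-fold in Fancd2KO, Btg2, Plk2 and Plk3 in Foxo3aKO and Phlda3 in DKO.

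Among the 5 genes of cell division and arrest, 1 was at least 2-fold above WT in Fancd2KO, against 1.15% of all genes. In Foxo3aKO 3 of the 5 were, against 1.27%. Plk2, a polo-like kinase induced by stress and by growth signals, stood at 6.96 (WT), 8.93 (Fancd2KO), 8.61 (Foxo3aKO) and 7.75 (DKO). It was lowest in WT and highest in Fancd2KO, 1.97 log2 above WT there, 1.65 in Foxo3aKO and 0.79 in DKO. Its relative Plk3, which acts in stress responses and cell cycle entry, stood at 6.52, 7.34, 7.91 and 6.91 on the same arrays. Its differences from WT were 0.81, 1.38 and 0.38, so it was highest in Foxo3aKO. Btg2, an antiproliferative gene that promotes decay of messenger RNA, stood at 9.50, 10.42, 10.60 and 9.86. It exceeded WT by 0.91 in Fancd2KO, by 1.10 in Foxo3aKO and by 0.36 in DKO. For all 3 genes the DKO array lay above WT and below both single knockouts.

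The other genes of this group did not share that pattern. Gtse1, a microtubule-binding protein of G2 that restrains p53, ran from 6.42 to 6.91 and differed from WT by 0.04, -0.18 and 0.30 in Fancd2KO, Foxo3aKO and DKO. Psrc1, a spindle protein, ran from 6.32 to 6.57 and differed by 0.04, -0.21 and -0.03.

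Btg2, Plk2 and Plk3 are also known as immediate early genes, which cells switch on within minutes of a stimulus, and many other genes of that class were higher on the single-knockout arrays. Of 18 other immediate early genes, 17 were higher than in WT in Fancd2KO and 12 at least 2-fold higher. In Foxo3aKO 17 were higher and 8 at least 2-fold, and in DKO 10 were higher and 2 at least 2-fold, beside the 1.15%, 1.27% and 0.987% of all genes that reached 2-fold higher. Myc was the gene not higher in either single knockout, at -0.07 and -0.49. Their mean signal was 7.96 (WT), 9.40 (Fancd2KO), 9.06 (Foxo3aKO) and 8.14 (DKO), and 0 of 18 were dim on all 4 arrays. Their part in the differences of Btg2, Plk2 and Plk3 was not tested. Without these 3 genes, 1 of 26 genes was at least 2-fold higher in Fancd2KO, 0 in Foxo3aKO and 1 in DKO, with list medians of -0.08, -0.09 and 0.08.

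**Figure D2:**
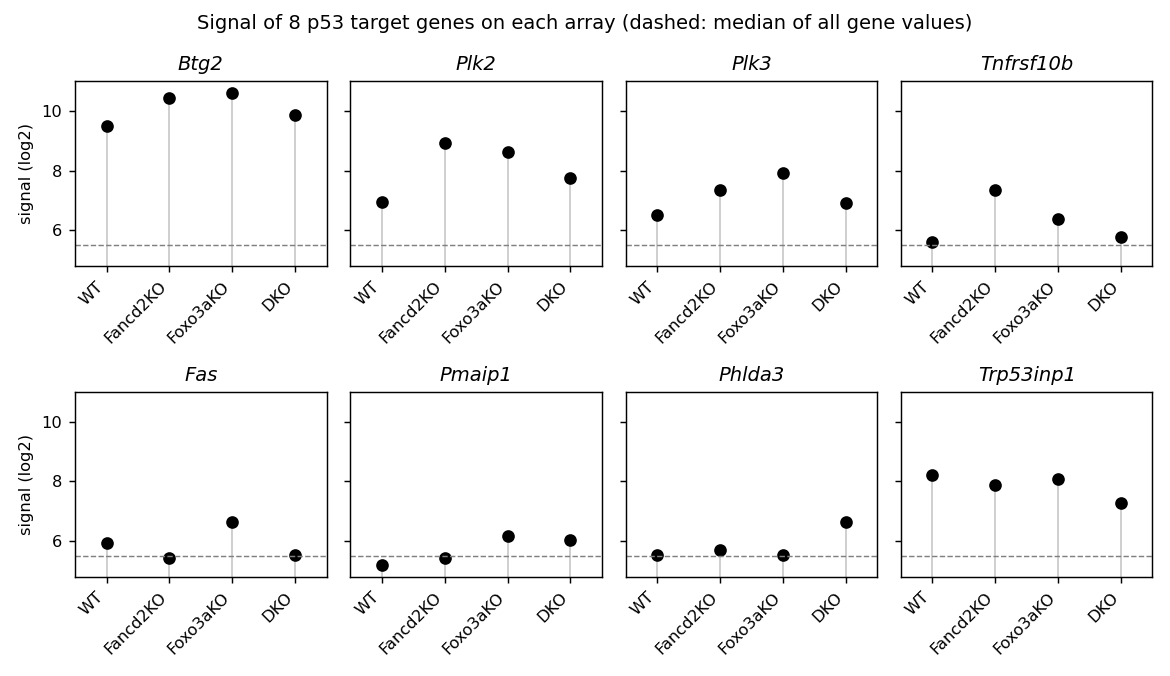
Each panel shows the log2 signal of 1 gene on the 4 arrays, 1 point per array, with the median of all gene values (5.51) as a dashed line. Btg2, Plk2 and Plk3 are lowest in WT, Tnfrsf10b stands out in Fancd2KO at 7.35, Fas in Foxo3aKO at 6.63 and Phlda3 in DKO at 6.63, while Trp53inp1 is lowest in DKO at 7.27.

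Genes of cell death were led by a death receptor. Tnfrsf10b, the mouse receptor for the death ligand TRAIL, stood at 5.62 (WT), 7.35 (Fancd2KO), 6.39 (Foxo3aKO) and 5.79 (DKO). Its signal in Fancd2KO was 1.72 log2 above WT, or 3.30-fold, and 0.96 above Foxo3aKO. WT and DKO lay just above the floor and within 0.17 of each other. Fas, the receptor for Fas ligand, ordered the arrays differently, at 5.92, 5.42, 6.63 and 5.53. It was highest in Foxo3aKO, 0.71 above WT, 1.21 above Fancd2KO and 1.10 above DKO.

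Of the 7 measured death genes that are not receptors, Pmaip1, Apaf1 and Perp were higher than WT in Foxo3aKO, by less than 2-fold, and 4 were lower. Pmaip1, which encodes the BH3-only protein NOXA, stood at 5.19 (WT), 5.43 (Fancd2KO), 6.17 (Foxo3aKO) and 6.02 (DKO). Its difference from WT was 0.99 in Foxo3aKO, just short of 2-fold, and 0.84 in DKO, or 0.67 and 0.51 when dim values were set to the floor. Apaf1, the scaffold of the apoptosome, stood at 7.65, 7.85, 8.29 and 7.81 and was 0.64 above WT in Foxo3aKO. Perp, a membrane protein of apoptosis and cell adhesion, stood at 5.36, 5.29, 6.01 and 6.14 and was 0.64 above WT in Foxo3aKO and 0.78 in DKO, or 0.50 and 0.64 after the same step. With Fas and Tnfrsf10b (0.76), 5 of the 10 measured death genes were at least 1.5-fold higher in Foxo3aKO, and 8 of the 29 genes in all (27.6%), against 5.07% of all genes. In Fancd2KO 4 of 29 (13.8%) were 1.5-fold higher, against 4.77% of all genes, and in DKO 5 of 29 (17.2%), against 4.95%. At least 1.5-fold lower were 1 of 29 in Fancd2KO (5.13% of all genes), 0 in Foxo3aKO (5.39%) and 1 in DKO (4.93%). With dim values set to the floor, the 1.5-fold higher genes were 4 in Fancd2KO (2.32% of all genes), 7 in Foxo3aKO (2.51%) and 3 in DKO (1.93%), and the lower ones 0 (2.79%), 0 (3.64%) and 1 (2.86%). Pmaip1 and Eda2r dropped out in DKO and Perp in Foxo3aKO.

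Other death genes differed little or in the lower direction. Aen, a nuclease of apoptosis, stood at 5.66 (WT), 5.03 (Fancd2KO), 5.42 (Foxo3aKO) and 5.72 (DKO), and its difference of -0.63 in Fancd2KO was the lowest of the 29 genes there. Raised to the floor, it was -0.15. Ei24, a protein of the endoplasmic reticulum, stood at 8.56, 8.44, 8.003 and 8.04, which is -0.56 in Foxo3aKO and -0.52 in DKO. Bbc3, which encodes the BH3-only protein PUMA, was dim throughout, at 4.98 to 5.44, and differed by -0.34 in Foxo3aKO. Pidd1, which assembles a caspase-activating complex, ran from 6.62 to 7.07 and differed by -0.35 in Foxo3aKO. Eda2r, a receptor of the TNF receptor family, was also dim, at 3.88, 4.28, 3.82 and 4.52, so its difference of 0.64 in DKO carries little information.

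Markers of some other blood cells differed on the knockout arrays beside these genes, and those of others were mixed. Of 14 monocyte and macrophage markers, 14 were higher than in WT in Foxo3aKO, 3 of them at least 2-fold, against 1.27% of all genes. In DKO 11 were at least 2-fold higher, against 0.987% of all genes, and 1 at least 2-fold lower, against 1.18%. The mean signal of these markers was 7.08 (WT), 6.72 (Fancd2KO), 7.73 (Foxo3aKO) and 8.74 (DKO), and 0 of 14 were dim on all 4 arrays. Of 14 neutrophil markers, 13 were higher than in WT in Foxo3aKO and 4 in DKO, with mean signals of 11.09, 10.81, 11.50 and 10.77. In Fancd2KO, 11 of 14 monocyte markers and 10 of 14 neutrophil markers were lower. Of 11 mast cell, basophil and eosinophil markers, 11 were lower in Fancd2KO, 6 of them at least 2-fold, against 1.01% of all genes. In DKO 11 were lower, 7 of them at least 2-fold, against 1.18%. The mean signals of these markers were 8.08, 6.80, 7.89 and 6.48. Of 8 measured erythroid markers, 8 were lower in Fancd2KO, 7 in Foxo3aKO and 5 in DKO. Of 8 measured B cell markers, 6, 6 and 7 were lower on the same arrays. Of 7 multipotent progenitor markers, 7 were lower in each single knockout and 6 in DKO, with mean signals of 8.18, 7.32, 7.30 and 6.94. Megakaryocyte markers (8 measured) were lower for 4, 6 and 4, and T and NK cell markers (8) for 4, 4 and 3. Dendritic cell markers (7) were lower for 5, 3 and 5, and endothelial and stromal markers (11) for 3, 6 and 4. Over all genes, 49.98%, 51.0% and 46.9% were lower in Fancd2KO, Foxo3aKO and DKO. In lists this short, counts near those shares say little. The part of these cell types in the p53 target signals was not tested.

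p53's own regulators were close to WT. Mdm2 stood at 8.59 (WT), 9.06 (Fancd2KO), 9.07 (Foxo3aKO) and 8.56 (DKO). The single knockouts lay 0.47 and 0.49 above WT, under 1.5-fold, and DKO lay at -0.02. Mdm4, a relative of Mdm2 that blocks p53's activity, was highest in WT at 9.62 and differed by -0.47, -0.19 and -0.37 in Fancd2KO, Foxo3aKO and DKO. Ccng1, an atypical cyclin that acts on Mdm2, stood at 9.12, 9.46, 9.03 and 9.01, with 0.33 in Fancd2KO as its largest difference. Ppm1d, a phosphatase that ends damage signalling, ran only from 7.22 to 7.35. The 8 measured genes with a p53 half-site in their window, Mdm2, Ccng1 and Ppm1d among them, differed from WT by -0.63 to 0.47 in Fancd2KO, -0.57 to 0.49 in Foxo3aKO and -0.52 to 0.30 in DKO. At shares near 1% of all genes in each direction, as above, 8 genes are too few to read anything from the 0 that reached 2-fold.

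Genes of stress, growth signalling and metabolism held the highest and the lowest difference of the 29 genes on the DKO array. Phlda3, which blocks the kinase AKT at the membrane, stood at 5.55 (WT), 5.69 (Fancd2KO), 5.54 (Foxo3aKO) and 6.63 (DKO). WT, Fancd2KO and Foxo3aKO lay just above the floor, and DKO was 1.09 above WT, 0.94 above Fancd2KO and 1.09 above Foxo3aKO. Trp53inp1, a stress protein that promotes p53 activity and autophagy, stood at 8.22, 7.89, 8.09 and 7.27. DKO was lowest, at -0.95 against WT, -0.62 against Fancd2KO and -0.82 against Foxo3aKO.

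The sestrins and other members of the group varied less. Sesn1, a sestrin that restrains the growth kinase mTORC1, stood at 8.71, 8.53, 8.14 and 8.25, with -0.57 in Foxo3aKO and -0.46 in DKO. Sesn2 lay near the floor, at 5.22 to 5.56. Ddit4, another brake on mTORC1, stood at 6.71, 6.36, 6.36 and 6.92. It differed from WT by -0.35 in both single knockouts and by 0.21 in DKO. Dram1, a lysosomal protein of autophagy, stood at 6.67, 6.34, 7.08 and 6.83. Tigar, a phosphatase that slows glycolysis, ran from 5.19 to 5.66. Bbc3, Sesn1, Trp53inp1, Ddit4 and Fas are also known as FOXO targets. Of these 5 genes, 5 were below WT in Fancd2KO, 4 in Foxo3aKO, where Fas was the exception, and 3 in DKO, beside 49.98%, 51.0% and 46.9% of all genes. Bbc3 was dim on every array.

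The 2 listed genes of DNA synthesis and lesion bypass varied little over the arrays. Rrm2b, the p53-induced subunit of ribonucleotide reductase, ran from 6.51 to 6.74, and Polk, a polymerase that copies past DNA lesions, ran from 6.79 to 6.93. Zmat3, an RNA-binding protein that steers splicing, stood at 6.35, 6.03, 5.98 and 6.61, with DKO highest.

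**Figure D3:**
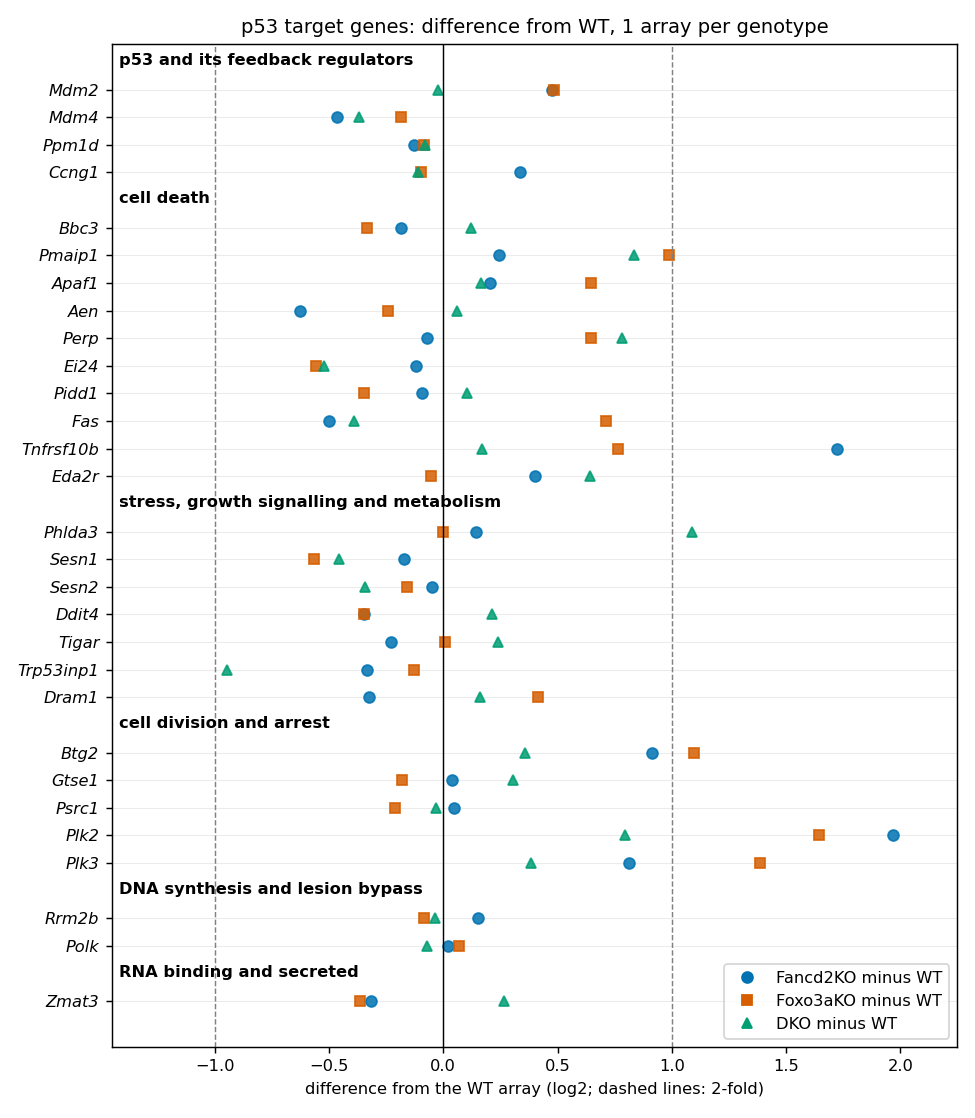
Points give each gene's log2 difference from WT for Fancd2KO (circles), Foxo3aKO (squares) and DKO (triangles), 1 array each, with genes grouped by role. Plk2 (1.97) and Tnfrsf10b (1.72) in Fancd2KO lie farthest to the right, and Trp53inp1 (-0.95) in DKO farthest to the left.

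Over the 4 arrays, the highest and lowest signal differed by at least 2-fold for 6 of 29 genes (20.7%), against 6.71% of all genes and 9.22% of those that reached the floor. These were Btg2, Plk2, Plk3, Tnfrsf10b, Fas and Phlda3. The median range was 0.57 log2 for the 29 genes and 0.43 for all genes. The highest signal fell on the WT array for 6 of the 29 genes, on Fancd2KO for 5, on Foxo3aKO for 8 and on DKO for 10, where all genes gave 24.3%, 24.5%, 22.4% and 28.8%. The lowest fell on the same arrays for 6, 7, 11 and 5 genes, where all genes gave 25.7%, 24.3%, 28.2% and 21.8%.

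The double knockout was then set against the single knockouts directly, without WT. Against Fancd2KO, 2 of 29 genes were at least 2-fold lower in DKO, Tnfrsf10b (-1.55) and Plk2 (-1.18), where 1.03% of all genes were, and 0 were at least 2-fold higher, where 1.04% were. Against Foxo3aKO, Fas (-1.10) and Plk3 (-1.001) were at least 2-fold lower in DKO, where 1.54% of all genes were, and Phlda3 (1.09) was at least 2-fold higher, where 0.825% were. Between the single knockouts, Fas was at least 2-fold higher in Foxo3aKO, where 1.39% of all genes were, and 0 genes were at least 2-fold lower, where 0.546% were.

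If both losses acted independently on the log2 scale, DKO would equal Fancd2KO plus Foxo3aKO minus WT. DKO lay at least 2-fold below that sum for 4 of 29 genes (13.8%), against 3.39% of all genes and 4.43% of those that reached the floor. These were Plk2 (-2.82), Tnfrsf10b (-2.32), Plk3 (-1.81) and Btg2 (-1.65), and Mdm2 (-0.98) came next. At least 2-fold above the sum were 0 of 29, against 3.02% and 3.99%, with Zmat3 (0.95), Phlda3 (0.94), Aen (0.93) and Ddit4 (0.91) highest. The median over the 29 genes was 0.13, beside 0.03 over all genes. WT was the lowest array for each of the 4 genes far below the sum, and an error in WT enters both single differences.

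**Figure D4:**
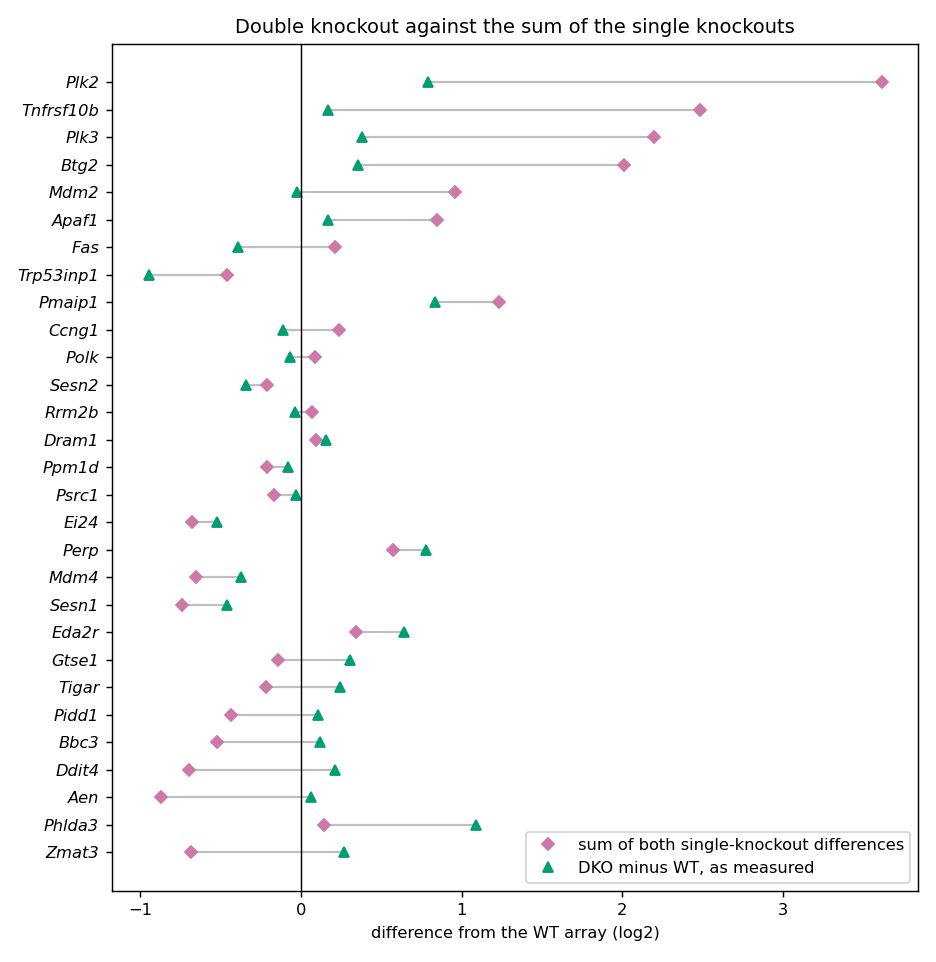
For each gene a diamond marks the sum of both single-knockout differences from WT and a triangle the measured DKO difference from WT, both in log2, ordered by the gap. Plk2, Tnfrsf10b, Plk3 and Btg2 have the widest gaps, with DKO at 0.79, 0.17, 0.38 and 0.36.

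Beyond the list, most of the pathway stayed within 2-fold of WT, as did most of all genes. Over all genes, 1.15%, 1.27% and 0.987% were at least 2-fold higher in Fancd2KO, Foxo3aKO and DKO, and 1.01%, 0.902% and 1.18% lower. At such shares, counts of 0 in lists of 10 to 13 genes say little. Of 10 kinases and mediators upstream of p53, such as Atm, Chek2 and Ep300, 0 were 2-fold apart on any knockout array, and their medians were 0.12, 0.07 and -0.07 in Fancd2KO, Foxo3aKO and DKO. Of 12 other regulators and relatives of p53, such as Cdkn2a, Usp7 and Trp73, 0 were 2-fold apart, with medians of 0.03, -0.05 and 0.04. Of 13 genes of the downstream death machinery, such as Bcl2, Mcl1 and Casp9, 0 were 2-fold apart, with medians of -0.03, -0.22 and -0.05.

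Among 23 further p53 targets, 1 was at least 2-fold higher than WT in Fancd2KO (1.15% of all genes) and 0 lower (1.01%). In Foxo3aKO 1 was higher (1.27%) and 1 lower (0.902%), and in DKO 0 were higher (0.987%) and 0 lower (1.18%). Cdkn1a stood at 7.21 (WT), 10.22 (Fancd2KO), 8.14 (Foxo3aKO) and 7.48 (DKO). It exceeded WT by 3.01 in Fancd2KO, by 0.93 in Foxo3aKO and by 0.27 in DKO, and it ordered the arrays as Tnfrsf10b and Plk2 did. Some immediate early genes, such as Nr4a1 and Nr4a2, had that order too, and others, such as Fos, did not. Thbs1, an extracellular matrix gene, stood at 7.65, 7.86, 10.003 and 7.49 and was 2.36 above WT in Foxo3aKO. Abhd4, a lipid hydrolase, stood at 7.51, 7.05, 6.48 and 6.73 and differed by -1.03 in Foxo3aKO. The medians of the 23 genes were 0.03, -0.17 and -0.04.

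**Figure D5:**
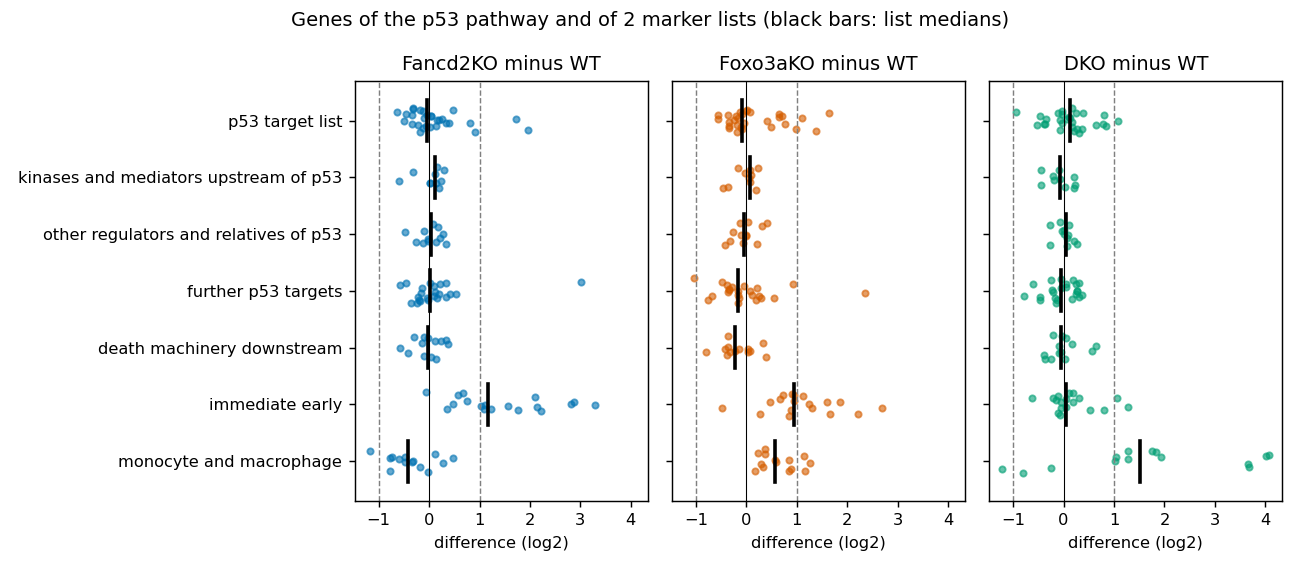
Each point is 1 gene's log2 difference from WT, black bars are list medians and dashed lines mark 2-fold. The p53 list and the 4 other pathway lists centre near 0, while the immediate early list lies at 1.17 in Fancd2KO and 0.95 in Foxo3aKO and the monocyte list at 1.52 in DKO.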

How the data were processed

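RNA from 4 sorted cell samples was measured on 4 arrays, 1 per genotype. The deposited table gave log2 expression values for 41345 probe sets, which the authors made in Affymetrix Expression Console according to the submitters' processing notes. Its version, the summarisation, normalisation and any filter are not given in the sources used here. At every rank the 4 sorted columns lay within 0.0889 log2 of their common mean, and the values were used as deposited. Gene names came from the platform annotation: 23521 had 1 symbol, 1814 several and 16010 no listed gene. The 29 members' Entrez identifiers were all in the RefSeq table of GRCm38.p6, with 0 symbols differing.

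Log2 values were subtracted between arrays and counted at 2-fold, without a floor (Python 3.11.15, pandas 2.3.3). Every member was named, with its 4 values when it differed from WT by 0.58 log2 or more, and others mostly by range; of the other pathway lists, Cdkn1a and genes at least 2-fold apart were named. Members, roles and lists were chosen with earlier results of these data known. Quantile, median and cyclic loess normalisation (limma 3.58.1), the mean of a gene's probe sets, a floor and other folds were tried. Counting was tested on simulated data. Precision is limited first by the number of arrays.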

Additional observations from a re-analysis of the deposited data

Results flagged for a closer look

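For 4 of the 29 genes, the loss of 1 gene went with differences in opposite directions depending on the other gene, each at least 1.5-fold. None of these differences was tested, since each effect is 1 array minus another. Fancd2 loss went with a difference of 1.97 log2 in Plk2 when Foxo3a was present and -0.85 when it was lost, a gap of -2.82. For Tnfrsf10b the values were 1.72 and -0.60 (gap -2.32), for Plk3 0.81 and -1.001 (gap -1.81), and for Btg2 0.91 and -0.74 (gap -1.65). Foxo3a loss gave 1.65 and -1.18 for Plk2 and 0.76 and -1.55 for Tnfrsf10b, with the same gaps by construction. Over all genes, 1.30% showed such opposed differences for Fancd2 loss and 1.41% for Foxo3a loss. All 4 genes were lowest on the WT array, which enters each gap.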

How the results depend on the processing

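Under quantile normalisation, median centring, cyclic loess, the mean of a gene's probe sets and dim signals raised to the floor, each count at 2-fold was as reported and each list median moved by no more than 0.1 log2. The mean of probe sets could not change a member, since each has 1. The floor could not change a 2-fold count against WT, since it only shrinks differences and no counted gene was dim on any array. Quantile normalisation had little room to act, since the sorted columns already lay within 0.0889 log2 of their common mean. The 10 single-gene differences beyond 2-fold kept their direction and moved by no more than 0.1 under quantile normalisation, median centring and cyclic loess. The floor could not move them, since none of their genes was dim on any array. At 1.5-fold, the higher and lower counts were 4 and 1 in Fancd2KO, 8 and 0 in Foxo3aKO, 5 and 1 in DKO, and 5 above and 7 below the sum of single knockouts. At 1.5-fold with dim signals raised to the floor, added after the data were seen, they were 4 and 0, 7 and 0, and 3 and 1 in the 3 knockouts. At 3-fold, 1 gene was higher in Foxo3aKO and 0 in DKO. Without Btg2, Plk2 and Plk3, an alternative added after the data were seen, 1 gene was 2-fold higher in Fancd2KO, 0 in Foxo3aKO, and 1 lay 2-fold below the sum. No paired analysis was possible because each genotype has 1 array and the labels carry no replicate numbers. No array could be left out, for the same reason. Signals near the floor limit Bbc3, Eda2r, Tigar, Sesn2 and, on some arrays, Pmaip1, Perp, Aen, Fas, Phlda3 and Tnfrsf10b, and the folds of Phlda3 in DKO and of Tnfrsf10b in Fancd2KO rest on near-floor WT values.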
